A study of Mus musculus with 12 samples.

Results

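Genes for the proteins of the cytoplasmic ribosome were followed over the day in mouse liver mRNA. They were taken by symbol: rows beginning with Rpl, Rps or Rplp and a digit, with the Rps6 kinases (Rps6k) left out. The rule found 80 of 20069 genes, and 79 of them had at least 1 value above 8 reads per base pair (rpbp, the mean read coverage over the exons of a gene, scaled to 40000000 uniquely mapped sequences). This minimum left 10198 genes in all. Of the 80 rows, 74 were core ribosomal proteins, 45 of the large (60S) and 29 of the small (40S) subunit. Another 5 were paralogs of core genes, and 1, *Rps19bp1*, matched the symbol but is a regulator of a deacetylase and not a ribosomal protein. The 1 row below the minimum was *Rpl3l*, a paralog of *Rpl3* known from muscle, with a mean of 0.197 ± 0.258 rpbp (SD, n = 12). *Rplp0* was not analysed here.

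The samples were whole livers of wild-type C57BL/6 male mice, 3 to 6 months old and housed in 12 hr of light and 12 hr of darkness. Livers were taken at Zeitgeber time (ZT, hr after lights on) 2, 6, 10, 14, 18 and 22 in 2 independent series, so that each time point had 2 samples and the light and dark phases had 6 each. No sample differed from the others by genotype or treatment. The question asked here was whether ribosomal protein mRNAs have a daily course in their level.

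A cytoplasmic ribosome holds 1 copy of most of its proteins. The mRNAs begin with a run of pyrimidines at the 5′ end, the terminal oligopyrimidine (TOP) motif, through which the mTOR kinase and the RNA-binding protein LARP1 set how well they are translated. The liver is known for daily cycles of feeding, of mTOR activity and of ribosome assembly, and translation of these mRNAs is a well-known point of that control.

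The pyrimidine run could be seen in the RefSeq start windows (GRCm38.p6), which were present for 54 of the 74 core genes. The longest run of only C and T that touched the 10 bases on either side of the start had a median of 6.5 bases in the 64 windows of these genes, and of 4 bases in all 32851 windows of the table. Runs of 8 or more bases were in 28 of the 64 windows (43.8%) and in 13.7% of all windows. The lines that follow show 10 bases before to 20 after the start, 5′ to 3′, with the part of that run inside the window in capitals. The first 5 are core genes with a long run, among them 2 with a large fitted daily change (*Rpl13a*, *Rpl27a*) and the one with the smallest (*Rps27*).
Rpl13a, chr7:45128726-45128755, minus strand: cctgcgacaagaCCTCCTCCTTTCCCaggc
Rpl27a, chr7:109519185-109519214, plus strand: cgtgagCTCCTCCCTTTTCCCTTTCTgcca
Rps27, chr3:90213629-90213658, minus strand: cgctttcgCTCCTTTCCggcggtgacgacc
Rps6, chr4:86857348-86857377, minus strand: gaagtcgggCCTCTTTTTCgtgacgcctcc
Rplp2, chr7:141447641-141447670, plus strand: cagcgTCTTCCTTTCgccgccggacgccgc
The next 3 are the core genes with the highest scores for a 24 hr cycle (*Rps2*, *Rpl22*) and the one with the lowest level (*Rps15a*). *Rpl22* has a second start in the table.
Rps2, chr17:24720053-24720082, plus strand: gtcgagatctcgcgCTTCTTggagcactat
Rpl22, chr4:152324426-152324455, plus strand: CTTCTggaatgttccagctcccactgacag
Rps15a, chr7:118116128-118116157, minus strand: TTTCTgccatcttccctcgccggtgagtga
The last 2 are paralogs, the one with the longest run among the expressed paralogs and the one whose time points differed.
Rpl22l1, chr3:28805498-28805527, plus strand: gcgcaagcccgTTCTCTTCCCacggctgca
Rpl7l1, chr17:46782637-46782666, minus strand: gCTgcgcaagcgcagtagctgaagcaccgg
The annotated start may lie some bases from the used one, so a short run in a window says nothing of the mRNA.

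Of letters searched on both strands of the 300-base windows (250 bases before to 50 after the start), CACGTG, the core of the E-box bound by CLK and BMAL1, was in 8 of the 64 windows (12.5%) and in 7.15% of all windows. TTATGTAA, a D-box sequence, was in 0 of the 64 windows and in 0.938% of all windows. AGGTCA, the core of REV-ERB and ROR sites, was in 7 (10.9%) and in 16.3% of all windows. GGAAG, the core of ETS factor sites, was in 60 (93.8%) and in 71.4% of all windows. These are counts of windows and not of genes, and nearby windows of a gene can hold the same site. *Rpl19* and *Rpl34* entered the CACGTG count with more than a single window each, and *Rpl35a* the AGGTCA count. These are matches of letters and were not tested.

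Ribosomal protein mRNAs were among the most abundant of the liver. The median of the 74 core genes was 327 rpbp, against 22.9 rpbp over all expressed genes, and 63 of the 74 were above 159 rpbp, the 90th percentile of all genes. Core genes spanned 39.4-fold in level, but 52 of 74 lay between 200 and 600 rpbp. The median was 308 rpbp in the 60S genes and 387 rpbp in the 40S genes.

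At the top stood *Rps2*, a protein near the mRNA entry of the small subunit, with 1203 ± 81.5 rpbp (SD, n = 12). *Rpl10*, which is needed for the last steps of large subunit maturation, followed with 1026 ± 74.3 rpbp. *Rpl41*, which encodes a very short peptide, had 966 ± 80.8 rpbp. The lowest value of *Rps2* (1033 rpbp) was under the highest of *Rpl10* (1137 rpbp) and of *Rpl41* (1146 rpbp), so these neighbours overlapped in their ranges. At the bottom, *Rps19*, the gene most often mutated in Diamond-Blackfan anaemia, had 88.0 ± 8.61 rpbp and *Rpl18*, a large subunit protein, 78.2 ± 8.64 rpbp. *Rps15a*, a small subunit protein, was apart from all other core genes with 30.5 ± 3.70 rpbp, and its highest library (39.6 rpbp) was below the lowest of *Rpl18* (68.0 rpbp).

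**Figure D1:**
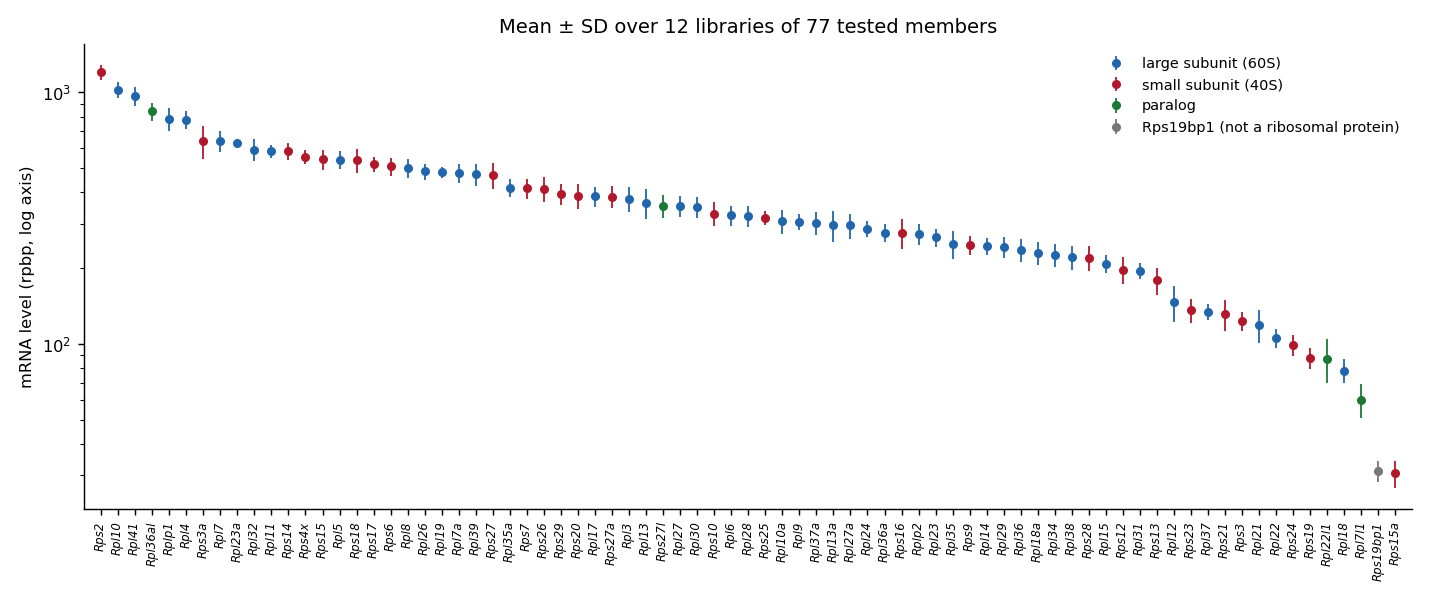
Mean mRNA level in rpbp (log axis) of 77 of the 79 tested members, ordered by level, with the SD over 12 libraries as bars and colours for the subunit or class. *Rps2* is highest at 1203 rpbp and *Rps15a* lowest at 30.5 rpbp, and the SDs are small beside the differences between genes.

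Genes of known roles lay between these ends. *Rplp1* and *Rplp2* encode the acidic stalk proteins that recruit elongation factors, and had 785 ± 80.5 and 273 ± 25.9 rpbp. *Rpl5* and *Rpl11*, which carry the 5S rRNA into the ribosome and can bind MDM2, had 541 ± 45.1 and 584 ± 35.5 rpbp. *Rps6*, the substrate of the S6 kinases, had 508 ± 41.0 rpbp. *Rps27a*, a fusion of ubiquitin and a small subunit protein, had 385 ± 39.8 rpbp. The values of *Rpl5* (475 to 614 rpbp), *Rpl11* (509.5 to 652 rpbp) and *Rps6* (435 to 564 rpbp) overlapped, and the differences between these genes were not tested.

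The way reads were counted could bear on the spread between genes, and its part in that spread was not tested. Only sequences with a single genomic place were kept by the authors, and ribosomal protein genes have many processed pseudogenes. In mm9, 48 of 73 core transcripts matched another place in over 50% of their windows of 100 bases (at most 2 mismatches), and the median was 73.2% of windows and 9 other places. *Rpl7a* had the most, 102 places. Across the 73 genes the share of such windows and the log2 level had a Pearson r of 0.40 and a Spearman rho of 0.34, a description over genes that share the same libraries. The median level was 385 rpbp in the 48 genes and 230 rpbp in the other 25. A comparison of different genes cannot show how many reads each of them lost. *Rps24* had a match elsewhere in 97.3% of windows and a signal of 99.0 rpbp, while *Rpl8* had one in 1.83% of windows and a signal of 499 rpbp. How many reads were lost in each gene was not tested.

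**Figure D2:**
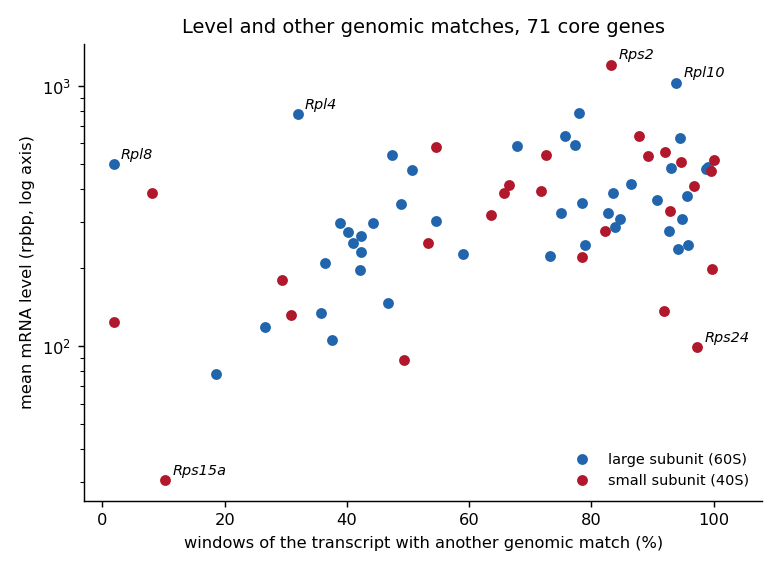
Mean mRNA level in rpbp (log axis) of 71 core genes against the percentage of 100-base windows of the transcript that match another place in mm9. Signals of 100 rpbp and more are seen along the whole range, from *Rpl8* at 1.83% to genes near 100%.

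The exon length used for the division also differs between annotations. *Rps15a* (chr7:125247892-125259700 in mm9) has 6262 bases of merged exons in GENCODE but a coding sequence of only 393 bases, and the part of this length in its low signal was not tested. Over the 73 genes, the ratio of merged to transcript length had an r of -0.08 with the log2 level. In 28 core genes, 51 small nucleolar RNA genes lie inside the gene, and counting did not use the strand.

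The daily course was first tested with the F24 score, the share of the variation of the 12 values that a 24 hr cycle takes (from 0 to 1). A gene was called rhythmic when its permutation p was below 0.05, its F24 above 0.45 and its amplitude (highest over lowest of the 12 values) above 1.5. None of the 79 members was called, while 19.1% of all expressed genes were. For the members this count of 0 came with 2 genes at an unadjusted permutation p below 0.05, and 26.6% of all genes passed that limit. The median F24 was 0.074 in the members and 0.310 over all genes. The median was 0.092 in the 60S and 0.049 in the 40S genes. The coefficient of variation over the 12 libraries went from 4.07% to 16.6% in the core genes.

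Only *Rps2* and *Rpl22* passed the limits on F24 and p, which 26.2% of all genes did, and both were stopped by their amplitude. *Rps2* (chr17:24855061-24858874 in mm9) had 1187, 1157, 1245, 1285, 1188 and 1118 rpbp at ZT2 to ZT22 of series 1 and 1033, 1270, 1233, 1303, 1278 and 1134 rpbp in series 2. Both samples of ZT14 were above all others of the gene. Its F24 was 0.630 (permutation p = 0.0117, adjusted over all genes 0.0919), with an amplitude of 1.26 and a phase of ZT12.8. *Rpl22* (chr4:151699851-151708180), a large subunit protein that cells can do without, had 102, 111, 126, 101, 96.1 and 101 rpbp in series 1 and 104, 120, 103, 95.7, 104 and 98.9 rpbp in series 2. Its high values were those of ZT6 and of ZT10 in series 1, and the light and dark samples overlapped. Its F24 was 0.488 (permutation p = 0.0327, adjusted 0.154), with an amplitude of 1.32 and a phase of ZT7.28.

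Just below the limit on F24 was *Rpl13a*, which is also known as part of an inhibitor of translation in immune cells. It had 382, 248, 294, 282, 262 and 294 rpbp in series 1 and 322, 271, 247, 281, 316 and 361 rpbp in series 2. Values were high at ZT2 in both series, but the ZT22 sample was high in series 2 alone. The F24 was 0.433 (permutation p = 0.0775) at an amplitude of 1.55. *Rpl30* followed with an F24 of 0.365 and *Rpl34* with 0.315, both large subunit proteins with their highest mean at ZT2 (389 ± 40.5 and 267 ± 29.0 rpbp, n = 2).

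**Figure D3:**
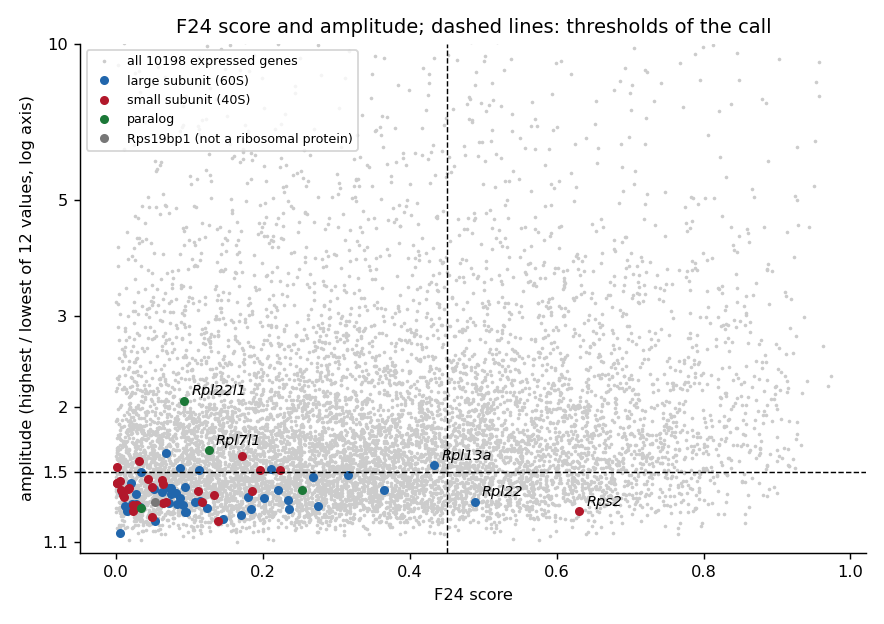
F24 score against amplitude (log axis, to 10; 277 genes lie above it) for all 10198 expressed genes in grey and the 79 members in colour, with dashed lines at the limits of 0.45 and 1.5. No member lies above both limits, and *Rps2*, *Rpl22* and *Rpl13a* come nearest to it.

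Amplitude did not keep all members out by itself. It was above 1.5 in 13 of 79 members and in 64.3% of all genes, and ranged from 1.15 in *Rpl23a* to 2.06 in the paralog *Rpl22l1*. Of these 13, none had an F24 above 0.45. *Rpl12*, the core gene with the largest amplitude (1.63), encodes a protein of the stalk base.

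Log-scale fits in limma without an amplitude limit gave a like result. With a 24 hr cosine, 0 of 79 members had an adjusted p below 0.05, and 9.22% of all genes did. At an unadjusted p below 0.05 the cosine also found 0 members and 27.6% of all genes. The smallest adjusted p of a member was 0.204, for *Rpl13a*. The fitted peak-to-trough fold had a median of 1.08 over the members and of 1.22 over all genes. It was above 1.2 in 1 member and in 55.4% of all genes.

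The largest fitted folds in core genes were 1.28 in *Rpl13a*, 1.195 in *Rpl21*, 1.18 in *Rpl27a* and 1.17 in *Rpl22*, *Rpl30* and *Rps3a*. The smallest folds were 1.00 in *Rps27*, 1.01 in *Rpl23a* and 1.02 in *Rps27a*. *Rpl23a*, a protein at the exit of the nascent chain, had the tightest values of all core genes, from 572 to 655 rpbp with a median of 627 rpbp. *Rps27* was as flat in its cosine but not in its values, which went from 379 rpbp in ZT10 of series 2 to 541 rpbp in ZT2 of series 1.

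**Figure D4:**
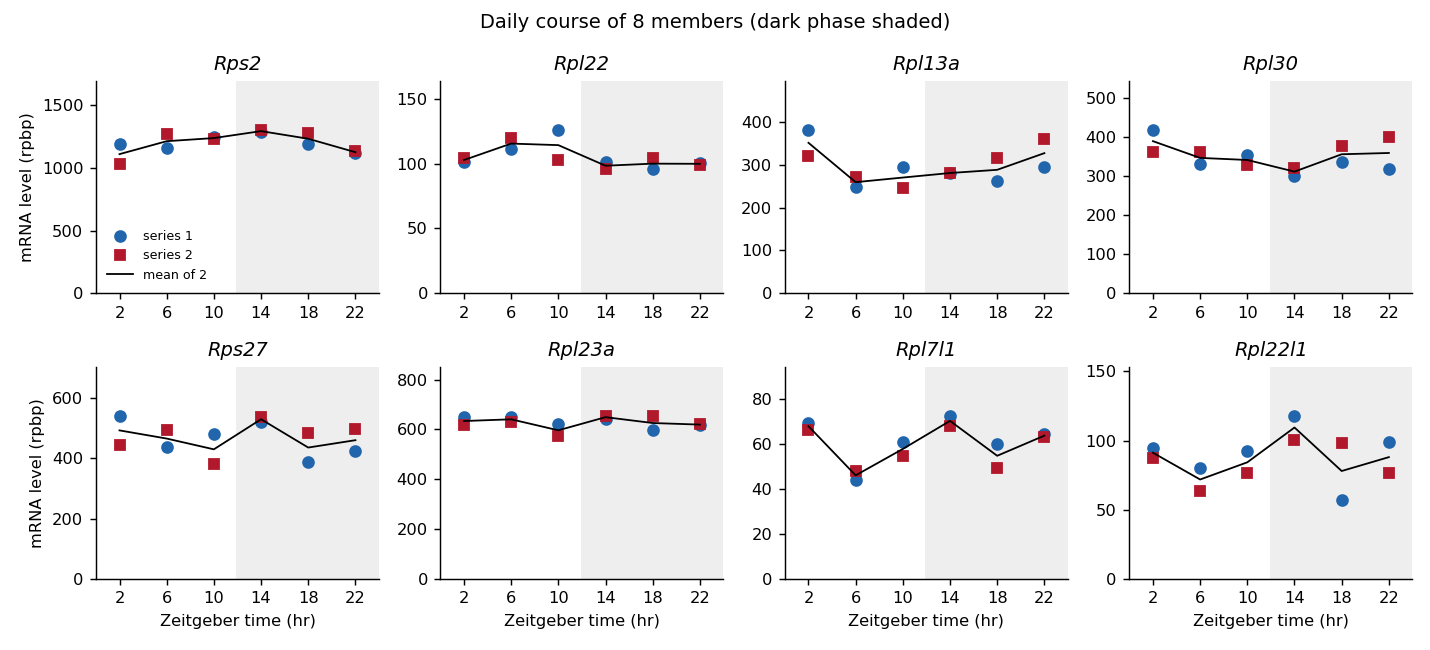
mRNA level in rpbp against Zeitgeber time for 8 members, with points for the samples of series 1 and 2, a line for their mean (n = 2) and the dark phase shaded. *Rpl23a* stays between 572 and 655 rpbp, while the points of *Rps27* run from 379 to 541 rpbp and the 2 series go apart at ZT2, ZT10 and ZT18.

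Light against dark gave no call either. In the limma contrast of ZT2, ZT6 and ZT10 against ZT14, ZT18 and ZT22, 0 of 79 members had an adjusted p below 0.05, and 5.30% of all genes did. At an unadjusted p below 0.05 the contrast found 1 member, *Rpl22*, and 22.9% of all genes. *Rpl22* had 111 ± 10.1 rpbp in light and 99.4 ± 3.19 rpbp in darkness (SD, n = 6 each), a log2 difference of 0.15 (95% interval 0.01 to 0.29, limma adjusted p = 0.184). In no member were light and dark values apart without overlap, and they were in 1.46% of all genes. Differences ran from -0.15 to 0.19 on the log2 scale, and no 95% interval reached beyond -0.44 or 0.39. The median difference was -0.03 over the members and 0.02 over all genes.

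A last limma test asked whether any of the 6 time points differed, whatever the shape of the course. It called 1 of 79 members, *Rpl7l1*, and 20.4% of all genes. At an unadjusted p below 0.05 it found 6 members and 37.7% of all genes. Among the other 5 were *Rpl18*, *Rpl13*, *Rpl10a* and *Rps26*, and the adjusted p of all 5 was 0.083 or more.

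*Rpl7l1* (chr17:46910856-46919605) is a paralog of *Rpl7* and not a core ribosomal protein. It had 69.4, 43.9, 60.8, 72.6, 60.2 and 64.4 rpbp in series 1 and 66.4, 48.1, 54.7, 67.9, 49.2 and 63.0 rpbp in series 2. The lowest value of both series was at ZT6 and the highest at ZT14. Between them lay a 1.53-fold change of the means, from 46.0 ± 3.00 to 70.2 ± 3.31 rpbp (n = 2; limma six-time-point adjusted p = 0.0255). The course had high means at ZT2 (67.9 ± 2.12 rpbp) and ZT14, and its F24 was 0.126. The call was lost when either sample of ZT2, either sample of ZT6 or the ZT14 sample of series 1 was left out (adjusted p from 0.0561 to 0.111), and over all libraries left out in turn it ran from 0.0164 to 0.111. It was also lost when each library was divided by the median of the core genes (adjusted p = 0.279), where its mean was still lowest at ZT6 (48.1 ± 1.72 rpbp), with 65.2 ± 2.64 rpbp at ZT14 and 65.5 ± 7.13 rpbp at ZT22. Its counterpart *Rpl7*, with 641 ± 60.7 rpbp, had an adjusted p of 0.578 in the same test.

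The levels of paralogs were set beside those of their counterparts. *Rpl36al* had 840 ± 67.7 rpbp and was above its counterpart *Rpl36a* (277 ± 23.2 rpbp) in every library. *Rps27l*, a paralog known as a target of p53, had 353 ± 37.8 rpbp and *Rps27* 469 ± 54.4 rpbp. *Rpl22l1* had 87.1 ± 17.1 rpbp and *Rpl22* 105 ± 9.29 rpbp. Of the pairs, *Rpl22l1* and *Rpl22* overlapped in level, as did *Rps27l* and *Rps27*. *Rpl22l1* was the most variable member, with 57.3 rpbp in ZT18 of series 1 and 98.6 rpbp in ZT18 of series 2. *Rps27l* was at its lowest at ZT2 (297 ± 7.52 rpbp), where 39 of 74 core genes and 40.1% of all genes were above their mean in both samples. Windows of 100 bases that match another place made up 86.4% of *Rpl36al*, 81.3% of *Rpl22l1*, 14.2% of *Rpl7l1* and 9% of *Rps27l*.

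What the members had in common was a shift from library to library. The summed signal of the 74 core genes was 31409, 26131, 27934, 30258, 25513 and 25557 rpbp at ZT2 to ZT22 of series 1. In series 2 it was 27619, 27267, 25019, 29939, 29225 and 28905 rpbp. It was high in ZT2 of series 1 and in both samples of ZT14, and low in ZT10 of series 2 and in ZT18 and ZT22 of series 1. The highest sum was 1.255 times the lowest, and the core genes took 1.62% to 2.03% of the signal of all genes.

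The shift ran through nearly all core genes and both subunits. In ZT2 of series 1, 71 of 74 were above their own mean over the 12 libraries, against 56.3% of all genes, and 37 had their highest value there, against 17.3%. In ZT22 of series 1, 1 of 74 was above its mean, against 48.0% of all genes. In ZT10 of series 2, 2 were above their mean, against 46.6% of all genes, and 28 had their lowest value, against 9.71%. Levels relative to the gene's own mean had a median from 0.893 to 1.14 by library in the core genes, and from 0.962 to 1.03 over all genes. In the extreme libraries both subunits moved alike, with medians of 1.12 (60S) and 1.15 (40S) in ZT2 of series 1, and of 0.897 and 0.887 in ZT10 of series 2.

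**Figure D5:**
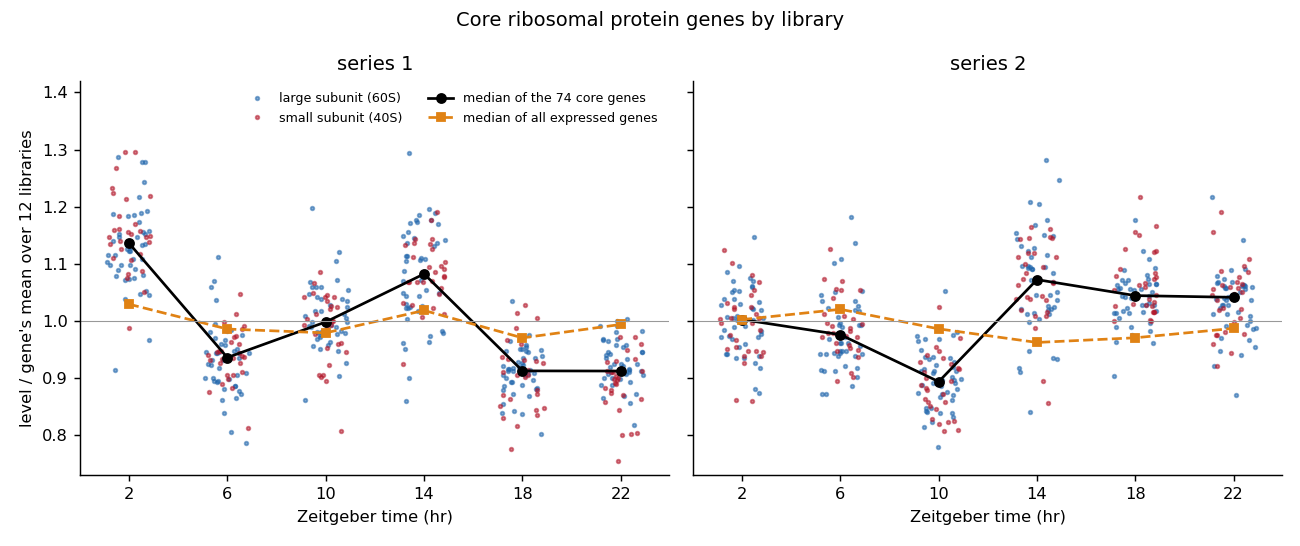
Level of each of the 74 core genes divided by its mean over the 12 libraries, by Zeitgeber time and series; black lines join the medians of the core genes and orange lines those of all expressed genes. Core genes move as a block, and the blocks of the 2 series differ at ZT2, ZT10, ZT18 and ZT22.

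Division by that library median lowered the coefficient of variation in 69 of 74 core genes, from a median of 9.66% to 5.43%. Some fall is built in, since the median is made from the same genes. For all genes, division by their own library median took it from 14.9% to 14.7%. After the division the highest F24 scores were 0.711 in *Rpl13a* and 0.693 in *Rpl27a*, with amplitudes of 1.33 and 1.23. Then 0 of 79 members were called rhythmic, against 16.3% of all genes divided in the same way. The divisor comes from the core genes, so it takes away their shared change and tends to lower the amplitude that a call needs. In other genes it brings in the shift of the core genes. This 0 is therefore no separate support, and shares over all genes on this scale are not a like background. The limits on F24 and p were then passed by 7 members, with amplitudes of up to 1.33, and by 18.7% of all genes. *Rps2* and *Rpl22* were no longer among them, with an F24 of 0.416 (permutation p = 0.0995) and of 0.367 (permutation p = 0.131).

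The time points agreed between series in part. Both samples of ZT14 were above the gene's mean in 60 of 74 core genes, against 27.8% of all genes. Both samples of ZT6 were below it in 48 and both samples of ZT10 in 38 core genes, against 33.6% and 35.7% of all genes. The time-point mean was highest at ZT14 in 42 core genes and at ZT2 in 29, against 15.4% and 29.2% of all genes. It was lowest at ZT10 in 31 and at ZT6 in 23 core genes, against 18.4% and 16.3% of all genes. The mean sum was 30099 ± 226 rpbp at ZT14 and 26477 ± 2061 rpbp at ZT10 (SD, n = 2). Pooled over the time points, the SD of the sum within a time point was 2026 rpbp. That was above the SD of 1526 rpbp of the 6 time-point means. The core genes moved together by library, so the counts of genes rest on 2 libraries per time point and are not separate observations.

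A few core genes went against the rest at ZT14. In 5 of 74 both samples of ZT14 were below the gene's mean, against 32.4% of all genes. These were *Rpl13a*, *Rpl21*, *Rpl22*, *Rpl30* and the small subunit gene *Rps13* (the last named after its values were seen). *Rpl21* had 107 and 99.4 rpbp at ZT14 against a mean of 118 ± 17.6 rpbp. *Rps13* had 165 and 153 rpbp against a mean of 179 rpbp. *Rpl30* had 301 and 321 rpbp against 350.0 ± 34.8 rpbp. In 6 of these 10 samples the departure was smaller than the SD of the 12 libraries, and none of the 5 genes was called.

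Within a time point the series often differed. At ZT18 the sample of series 1 was above that of series 2 in 2 of 74 core genes and at ZT22 in 4, against 49.8% and 52.9% of all genes. At ZT2 it was above in 72 and at ZT10 in 68 core genes, against 57.1% and 46.6% of all genes. The direction between light and dark followed the series. In series 1, 67 of 74 core genes were higher in light, against 50.1% of all genes, and in series 2 it was 6 of 74, against 58.2% of all genes. The sums were 27563 ± 2170 rpbp in light and 28233 ± 2145 rpbp in darkness (SD, n = 6 each), and the F24 of the sum was 0.025.

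Values of other genes by library are given beside this shift. The 5 hepatocyte markers (*Alb*, *Apoa1*, *Ttr*, *Serpina1a* and *Cps1*) were all above the minimum, and their summed signal was 82447 and 85335 rpbp at ZT2 and 122027 to 156229 rpbp in the other libraries. *Alb* took 3.26% and 3.50% of all signal at ZT2 and 6.16% to 8.21% in the others. The summed signal of 8 Kupffer cell markers was 841 and 857 rpbp at ZT2 and 445 to 670 rpbp in the others, with 7 of 8 above the minimum. Endothelial markers stayed within 190 to 227 rpbp and stellate cell markers within 186 to 242 rpbp. Erythroid markers (2 of 4 with a row) went from 295 to 857 rpbp, with the 2 highest sums in ZT10 of series 2 (857 rpbp) and ZT18 of series 1 (584 rpbp), the 2 libraries with the lowest sums of the core genes. The next was 539 rpbp in ZT14 of series 1, where the core genes were high, and ZT22 of series 1, where they were low, had 319 rpbp. Cholangiocyte markers summed to 3.80 to 14.1 rpbp and lymphocyte markers to 4.96 to 12.3 rpbp, with 1 of 3 and 0 of 5 above the minimum. In whole liver, fewer cells of a type and less RNA per cell cannot be told apart, and the part of these values in the shift was not tested.

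Ribosomal proteins whose symbols the rule leaves out gave no call either. *Rpsa*, the laminin receptor homologue, had 314 ± 49.5 rpbp, and *Fau*, a ubiquitin-like fusion with a small subunit protein, 382 ± 36.2 rpbp. *Gnb2l1*, which encodes RACK1 on the small subunit, had 357 ± 41.3 rpbp. None of these 3 passed the F24 criteria or any of the 3 limma tests. The highest F24 among them was 0.399, in *Fau*, with the mean highest at ZT14 (430 ± 20.2 rpbp) and lowest at ZT2 (337 ± 37.1 rpbp).

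Of 15 other mRNAs with a TOP motif, mostly translation factors, 1 was called rhythmic (19.1% of all genes). It was *Eif4b*, an activator of the helicase of translation initiation, with 222 ± 5.66 rpbp at ZT6 and 125 ± 14.8 rpbp at ZT14 (n = 2), an F24 of 0.573 (permutation p = 0.0135, adjusted 0.0985) and a light against dark log2 difference of 0.31 (limma adjusted p = 0.0262). Its limma cosinor adjusted p was 0.0799. The median F24 of the 15 was 0.280 and the median fitted fold 1.11. Of 8 expressed genes of the mTOR arm, 1 was called rhythmic. It was *Larp1*, whose protein binds the TOP motif, with 66.9 ± 3.82 rpbp at ZT10 and 100 ± 4.84 rpbp at ZT22, an F24 of 0.875 (permutation p = 0.0006, adjusted 0.0231) and a limma cosinor adjusted p of 0.00383. The phases of the 2 genes were ZT4.42 and ZT22.1.

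Mitochondrial ribosomal proteins and respiratory chain subunits were set beside the members, without matching by level. Of 75 mitochondrial ribosomal protein genes, 7 were called rhythmic, and of 72 respiratory chain genes 5 were, against 0 of 79 members and 19.1% of all genes. Their median F24 was 0.308 and 0.397, near or above the 0.310 of all genes, and their median fitted fold was 1.18 and 1.16. The six-time-point test called 2 and 8 of them, against 20.4% of all genes. Their relative medians by library were set beside those of the core genes. In ZT2 of series 1, where the core genes had 1.14, the mitochondrial ribosomal proteins had 1.08, their highest, and the respiratory chain 0.957. In ZT10 of series 2, where the core genes had 0.893, the mitochondrial ribosomal proteins had 1.03 and the respiratory chain 1.09.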

How the data were processed

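Poly(A) RNA libraries from mouse liver were sequenced for 12 samples (6 time points, 2 series). Per the submitters' processing notes, CASAVA 1.8 and TopHat were used with the mm9 genome. The authors kept uniquely mapped sequences and divided the coverage over flattened UCSC exons by their length. The deposited signal is this mean coverage per base pair, per 10000000 uniquely mapped sequences, and was multiplied by 4. The deposited F24 score, phase and p-value columns hold the authors' own rhythm analysis and were not used. Columns headed ZT20 were read as ZT22, the time in the sample labels. The number of reads behind a value is not held in the table, so no counting interval is given.

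Tests covered every gene that exceeded 8 rpbp in any sample. F24 was computed on the 12 concatenated values with 10000 permutations (seed 1, smallest p 0.0001). limma 3.58.1 with trend (R 4.3.3) was run on log2(rpbp + 1) for a 24 hr cosine, the 6 time points and light against dark, with Benjamini-Hochberg adjustment over 10198 genes. Fold changes of limma are on this scale. Scripts were tested on simulated data. Transcripts from GENCODE vM1 were searched in mm9 with blastn 2.17.0+. Sequences are from RefSeq. Python 3.11.15 with pandas 2.3.3 and numpy 2.4.6 was used for the rest.

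Replicate numbers mark series, and deviations of same-numbered samples correlated from -0.15 to 0.21 over 15 pairs of time points (2 above 0.1), so no block was used. Nothing in the labels says that samples are separate animals, and p-values measure the spread between these samples. Genes were named by rule: smallest cosinor p, largest and smallest fitted fold, highest and lowest level, paralog pairs and known roles. *Rpl12*, *Rpl7a*, *Rps24*, *Rpl8*, *Rps3a* and the genes beside *Rpl7l1* were named after their values were seen. Some genes are not reported here and not drawn. Members, lists and tests were chosen with earlier results of these data known.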

Additional observations from a re-analysis of the deposited data

How the results depend on the processing

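Of 82 alternative values of the 7 summary results, 74 were labelled the same. Counts had to be equal or within 1.5 times, and other values within a spread. For the medians this spread came from the single-series values, which are themselves among the alternatives, so the label is weak support there. The light against dark median was labelled the same although its sign changed without replicate 2. The count of members called rhythmic was 0 under every alternative but 1: without an amplitude minimum it was 2 (*Rps2* and *Rpl22*). Over all genes this count was 1948 and went from 286 (without replicate 2) and 369 (without replicate 1) to 2777 (no minimum level), so that the 0 of a single series stands beside few calls in all. The members' count was also 0 without the ZT2 samples and after division by the core genes' library median, both added after seeing the data. The 0 after the division is no separate support, since the divisor is made from the core genes. The cosinor and light against dark counts stayed at 0 under all alternatives, the replicate block included, while those over all genes went from 501 to 973 (940 as reported) and from 213 to 586 (540 as reported), and the block left the six-time-point count at 1 (*Rpl7l1*, adjusted p = 0.0311). That count went to 0 after division by the core genes' library median and ranged from 0 to 1 with each library left out, where a lone sample is assumed to vary like the other time points. Over all genes it was 2076, 1378 after the division and from 928 to 2023 with a library left out. The median fitted fold was 1.16 without replicate 1 and 1.11 without replicate 2. Over all genes it rose too, from 1.22 to 1.28 and 1.24. The median light against dark difference of the members was -0.14 and 0.07. Each series alone thus had a larger fitted fold, as over all genes, and the opposite sign of the other in light against dark. The highest over the lowest sum was 1.22 with size factors and 1.21 without ZT2 of replicate 1, and the highest library was then a ZT14 sample in both cases. The cause of these moves was not tested. Of 316 alternative values of named genes, 310 made no difference to a call, and the other 6 were those of *Rpl7l1*. A named gene with an amplitude below 1.5 could not be called rhythmic on the log scale, with the replicate block or in a single series. Many of the 310 were thus fixed in advance. The 95% interval of a member's light against dark difference had a half-width from 0.11 to 0.31 on the log2 scale, with a median of 0.16, which limits the precision of these differences.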
